A study of Homo sapiens with 2 samples.

Results

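The S100 genes described here are S100A2, S100A3, S100A4, S100A6, S100A10, S100A11, S100A13, S100A14, S100A16 and S100P, 10 of the 60527 genes in the deposited table, taken by their gene symbols. They were selected on their measured values in the same 2 libraries, so what follows describes them and tests nothing. RNA was sequenced from 2 cultures that carry the label SK-MEL-2, the name of a human melanoma line, both grown in the same serum-containing medium. One culture received DMSO, the solvent, and the other received 1.75 µM JNJ-7706621, known as an inhibitor of cyclin-dependent and Aurora kinases, both for 48 h. The series title concerns AUF1, an RNA-binding protein, and the decay of the mRNAs it binds. One library of each group was analysed, so every difference below lacks a check in replicates and no p-value was computed.

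S100 proteins are small calcium sensors of vertebrates, each with a pair of EF-hands, the helix-loop-helix motif that holds a calcium ion. Most form dimers that open a binding face when calcium rises, and through it they dock onto annexins, myosin, ezrin and other targets. Some are also secreted and act on cell surface receptors such as RAGE, the product of AGER. In epithelia and in tumours derived from them, several members are abundant and are used as markers of differentiation or invasion, while S100B is the classical marker of melanocytic cells.

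Values are FPKM, fragments per kilobase of exon and per 1000000 reads of the library, a unit that can be compared between genes. The library totals behind them were 23377161 reads for DMSO and 22817719 reads for JNJ-7706621. Ratios are FPKM in JNJ-7706621 over FPKM in DMSO. Parentheses after a ratio hold its exact 95% interval (Clopper-Pearson), which covers counting error only and says nothing about the spread between cultures. A log2 difference is log2(FPKM + 1) in JNJ-7706621 minus that in DMSO, and a gene with a mean FPKM of at least 1 was called higher or lower where it was at least 1 or at most -1.

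The label of a melanoma line was checked on markers, 2 of which are S100 genes. S100B had 0 reads in both libraries, which allows up to 0.0886 FPKM with the solvent and 0.0908 FPKM with the inhibitor. S100A1 stood at 0.791 and 0.723 FPKM. Of the 8 melanocyte markers, 2 (MITF and PMEL) reached a mean FPKM of 1. SOX10 and DCT each had 1 and 0 reads, TYR had 0 in both, and MLANA stood at 0.200 and 0.190 FPKM. All 5 epithelial markers were measured, with a summed level of 1962 FPKM with the solvent and 1979 FPKM with the inhibitor. Most of that sum came from KRT18, at 1117 and 1123 FPKM, and KRT8, at 720 and 703 FPKM. EPCAM stood at 55.7 and 59.4 FPKM, CDH1 at 49.8 and 67.8 FPKM and KRT19 at 19.2 and 26.7 FPKM. MITF, which other cells also express, stood at 2.65 and 2.27 FPKM, and PMEL at 2.00 and 3.71 FPKM, a ratio of 1.86 (1.55 to 2.24). SOX10, TYR, DCT, MLANA and S100B were thus at or near 0 while MITF and PMEL were low but present. The libraries are called here by their treatment alone. Of 4 mesenchymal and 3 endothelial markers, 0 reached a mean FPKM of 1. The summed levels were 0.148 and 0.489 FPKM for the mesenchymal list and 0.109 and 0.237 FPKM for the endothelial list.

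With the solvent the 10 genes formed 2 tiers. S100A6, S100A10, S100A4, S100A11, S100P, S100A16 and S100A14 lay between 85.2 and 963 FPKM, and S100A3, S100A13 and S100A2 between 1.08 and 4.58 FPKM. With the inhibitor S100A3 lay between the tiers. The highest ratios between the libraries were those of S100A3 and S100A2, both of the low tier. S100A3 stood at 4.58 FPKM with the solvent and 25.1 FPKM with the inhibitor, and S100A2 at 1.08 and 2.47 FPKM, while in the high tier the ratios ran from 0.719 for S100P to 1.27 for S100A14. Of the 10 genes, all of which passed the filter on low values, 1 was called higher (S100A3) and 0 lower. Over all 13241 genes measured, 2.39% were called higher and 1.36% lower. With a call at 1.5-fold S100A3 and S100A2 were called higher and 0 lower, against 8.53% and 6.77% of all genes. Since these same values chose the genes, nothing is read from that comparison. In RNA of a whole culture, fewer cells that express a gene and less of its RNA per cell cannot be told apart.

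**Figure D1:**
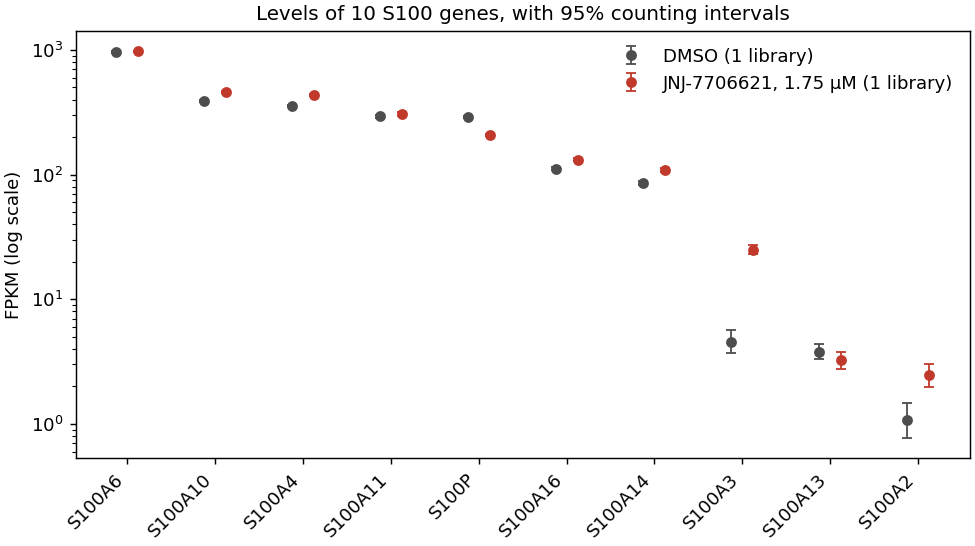
Level of each of the 10 S100 genes in FPKM on a log scale, in the DMSO library (grey) and the JNJ-7706621 library (red), ordered by the level in DMSO. Points are single libraries and bars are 95% counting intervals. S100A6 is highest in both, at 963 and 973 FPKM, and S100A3 has the widest gap between the libraries, at 4.58 and 25.1 FPKM.

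S100A3 is a cysteine-rich member that binds zinc as well as calcium and is best known from the hair cuticle. Its value rested on 90 reads in DMSO and 481 reads in JNJ-7706621, a ratio of 5.48 (4.36 to 6.94). Its log2 difference of 2.22 ranked 18 from the top among all 13241 genes measured. By level it ranked 7386 of all genes with the solvent and 1784 with the inhibitor.

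S100A3 lies within the bounds of its neighbour S100A4 on the same strand. On GRCh38 the annotation (GENCODE release 29) places S100A3 at chr1:153547329-153549372 and S100A4 at chr1:153543613-153550136, where S100A3 falls in the first intron of a long S100A4 transcript. Their exons share 0 bases. S100A4, known as metastasin, binds non-muscle myosin and is linked to cell motility. It stood at 354 FPKM with the solvent and 434 FPKM with the inhibitor, a ratio of 1.23 (1.19 to 1.26). The nested gene and its host therefore differed by unequal factors between the same libraries. RNA was extracted as total RNA, and whether unspliced S100A4 transcripts added reads to S100A3 was not tested.

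The sequence before the start of S100A3 is shown because it is the 1 member called. Beside it are those of its neighbour S100A4 and of S100P, the high-tier member that stood lower. Each run is the 250 bases before the RefSeq start (GRCh38.p14), 5′ to 3′ on the strand of the gene, and capitals mark matches to the motifs searched. The runs lie at chr1:153549259-153549508 on the minus strand, chr1:153545807-153546056 on the minus strand and chr4:6693628-6693877 on the plus strand. In the direction of transcription the S100A4 start used here lies beyond S100A3. It is thus not the start of the long S100A4 transcript that holds S100A3. RefSeq and GENCODE starts differ, and the S100A4 and S100P runs and part of the S100A3 run lie within the GENCODE bounds of those genes. The whole S100A3 run also lies within the bounds of S100A4.
S100A3: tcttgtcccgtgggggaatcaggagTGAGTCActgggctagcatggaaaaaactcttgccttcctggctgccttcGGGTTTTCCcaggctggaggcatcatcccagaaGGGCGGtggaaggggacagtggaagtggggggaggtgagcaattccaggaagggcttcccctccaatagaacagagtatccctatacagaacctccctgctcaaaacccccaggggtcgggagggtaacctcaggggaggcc
S100A4: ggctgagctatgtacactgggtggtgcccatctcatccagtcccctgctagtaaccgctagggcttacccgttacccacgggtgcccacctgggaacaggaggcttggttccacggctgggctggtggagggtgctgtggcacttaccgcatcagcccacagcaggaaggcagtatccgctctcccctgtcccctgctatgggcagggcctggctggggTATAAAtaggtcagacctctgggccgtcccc
S100P: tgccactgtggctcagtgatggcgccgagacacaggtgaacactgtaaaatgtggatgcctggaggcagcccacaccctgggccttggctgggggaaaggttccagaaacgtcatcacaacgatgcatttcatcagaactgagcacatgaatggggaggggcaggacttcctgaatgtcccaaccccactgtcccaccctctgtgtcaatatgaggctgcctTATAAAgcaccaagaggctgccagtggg

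Motifs were searched on both strands in windows of 300 bases, from 250 before to 50 after each RefSeq start. All 10 genes had a window, and with several starts for some genes there were 14 windows. The S100A3 window held TGANTCA, the AP-1 motif, as TGAGTCA 225 bases before the start. It also held GGNNTTTCC, the core of an NF-kB site, as GGGTTTTCC 175 bases before the start, and CCGCCC, a GC box, on the other strand 142 bases before it. No match overlapped another in the runs shown. The S100A4 and S100P windows held the TATA box TATAAA at 31 and 28 bases before the start, and S100A3 had no match to it in its window.

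The AP-1 motif was present in 7.71% of the 35116 windows of all genes and in 2 of the 14 windows of the 10 genes. These were of S100A3 and S100A2 (TGACTCA, 52 bases before 1 of its starts). Outside the 10 genes, S100A5 and S100A12 of the same family also had it, and S100A8 and S100A9 did not. The NF-kB core was present in 6.26% of all windows and in 2 of the 14, of S100A3 and S100A14. S100A13, S100A4 and S100P had the TATA box, found in 11.5% of all windows and in 3 of the 14. The GC box was found in 45% of all windows and in 6 of the 14 windows of the 10 genes, and GGAATG, the TEAD motif, in 14% of all windows and in 2 of the 14, both of S100A16. A match gives letters only, and binding was not measured.

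S100A2 is a mostly nuclear member of basal epithelial cells that binds p53. It rested on 39 reads in DMSO and 87 reads in JNJ-7706621, a ratio of 2.29 (1.55 to 3.43). Its log2 difference was 0.74, short of a call because the pseudocount weighs on low values, and it was 1.12 with a pseudocount of 0.1. S100A13, which takes part in the release of FGF1 and interleukin 1 alpha from cells, stood at 3.80 FPKM with the solvent and 3.26 FPKM with the inhibitor. Its ratio of 0.858 had an interval that holds 1 (0.693 to 1.06), on 197 and 165 reads. Exons of other genes overlap part of S100A13, with S100A1 on the opposite strand sharing 10.6% of its exon length and AL162258.1, on the same strand and listed at 0 in both libraries, sharing 24.2%. Whether counting used strand was not given in the sources used here, so reads of that stretch may not be separable.

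**Figure D2:**
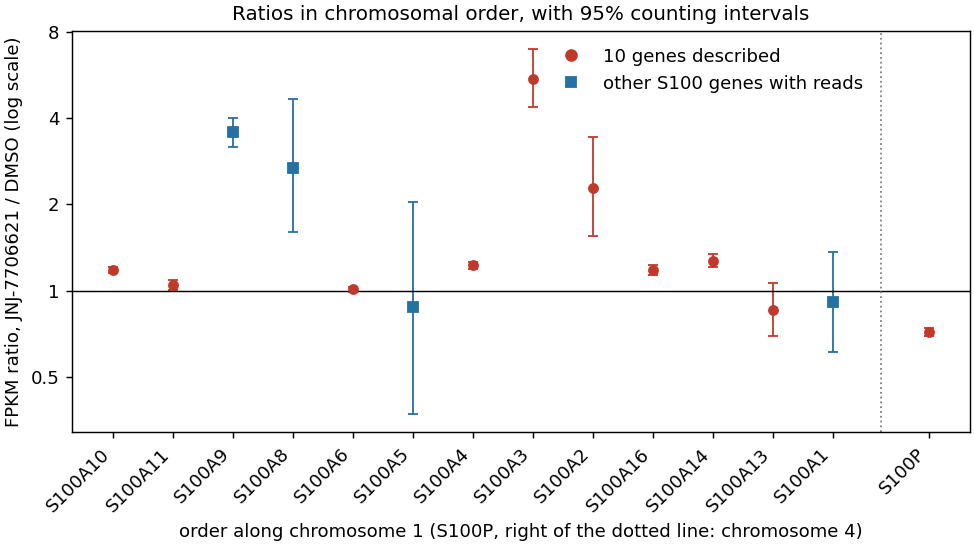
FPKM ratio of JNJ-7706621 over DMSO on a log scale, in the order of the genes along chromosome 1, with S100P of chromosome 4 at the right. Red points are the 10 genes, blue squares the 4 other listed S100 genes with at least 20 reads in both libraries together, and bars are 95% counting intervals. S100A9, S100A8, S100A3 and S100A2 lie above a ratio of 2, and their neighbours S100A6, S100A5, S100A4 and S100A16 do not.

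S100A6, or calcyclin, binds annexins and CACYBP, a protein of ubiquitin ligase complexes. With 963 FPKM with the solvent and 973 FPKM with the inhibitor it ranked 38 and 36 among all genes. Its ratio was 1.01 (0.992 to 1.03), and its log2 difference, 0.02, changed sign to -0.0025 when each library was rescaled to a sum of 1000000. The most abundant S100 mRNA thus did not differ beyond counting error.

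S100A10, or p11, has lost the ability to bind calcium and sits in a complex with annexin A2 at the plasma membrane, where it also binds plasminogen. It stood at 389 FPKM with the solvent and 459 FPKM with the inhibitor, a ratio of 1.18 (1.15 to 1.21). S100A11, or calgizzarin, a partner of annexin A1, stood at 293 FPKM with the solvent and 306 FPKM with the inhibitor. Its ratio of 1.05 had an interval close to 1 (1.00 to 1.09). S100A10 and S100A11 lie apart from the main cluster, at chr1:151982915-151994390 and chr1:152032506-152047907, with 1310 kb between S100A11 and S100A9.

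S100A14 and S100A16 are neighbours in the genome and are both made in many epithelia. S100A14 stood at 85.2 FPKM with the solvent and 108 FPKM with the inhibitor, a ratio of 1.27 (1.21 to 1.34). S100A16 stood at 111 FPKM with the solvent and 132 FPKM with the inhibitor, a ratio of 1.18 (1.14 to 1.23). Both intervals lay above 1, and 1.11 kb separates the genes.

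S100P, first purified from placenta, binds ezrin inside the cell and RAGE outside it, and it is abundant in several carcinomas. It is the 1 member outside chromosome 1, at chr4:6693069-6697170. It stood at 289.8 FPKM with the solvent and 208 FPKM with the inhibitor, a ratio of 0.719 (0.697 to 0.742). It was the 1 member whose interval lay below 1, and its log2 difference of -0.47 did not reach a call.

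Counting intervals lay above 1 for 7 of the 10 genes, below 1 for 1, and held 1 for S100A6 and S100A13. Among the 13108 measured genes with recovered reads, the intervals of 32.8% lay above 1 and those of 33.2% below 1. At these read numbers counting error is small beside the differences of most abundant genes, and an interval off 1 is common. It was found for 86.7% of the 798 genes that averaged 50 FPKM or more and had recovered reads. The median log2 difference of the 10 genes was 0.24, against -0.0032 over all genes measured. For the 7 high-tier genes it was also 0.24, against 0.02 over 801 genes averaging 50 FPKM or more. These values chose the S100 genes, so nothing is read from either comparison of medians. The middle 50% of those 801 genes ran from -0.19 to 0.25, so that S100A4 at 0.29 and S100A14 at 0.34 lay above it and S100P below it.

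**Figure D3:**
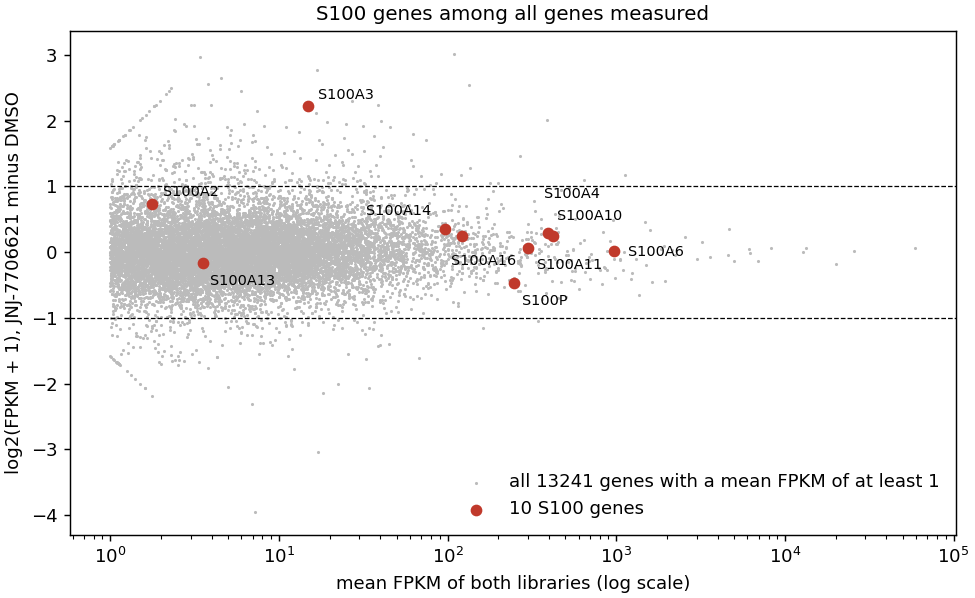
Log2 difference between the libraries against the mean FPKM of both libraries on a log scale, for 13241 genes averaging 1 FPKM or more (grey) and the 10 S100 genes (red). Dashed lines mark the limits for a call at 1 and -1. S100A3 lies above the upper line at 2.22 and the other 9 lie between the lines.

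The order of levels among the 10 genes was the same in both libraries. In DMSO it ran S100A6, S100A10, S100A4, S100A11, S100P, S100A16, S100A14, S100A3, S100A13 and S100A2. In that order S100A11 and S100P, at 293 and 289.8 FPKM, had overlapping counting intervals, as had S100A3 and S100A13 at 4.58 and 3.80 FPKM. In JNJ-7706621 S100A11 at 306 FPKM was 1.47 times as high as S100P, S100A3 was 7.68 times as high as S100A13, and S100A13 and S100A2, at 3.26 and 2.47 FPKM, overlapped. The spread of these levels between cultures is not known.

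The 10 genes summed to 2495 FPKM with the solvent and 2652 FPKM with the inhibitor, a ratio of 1.06, which is 0.57% and 0.598% of the FPKM of all genes. The difference in FPKM, inhibitor minus solvent, was -81.4 for S100P, 79.9 for S100A4 and 70.5 for S100A10, against 20.5 for S100A3. S100P thus made up 11.6% of the sum of the 10 genes in DMSO and 7.86% in JNJ-7706621. S100A6 made up 38.6% and 36.7%, and S100A3 made up 0.184% and 0.945%.

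The rest of the S100 family, as listed here, held 10 more genes, of which 2, S100A8 and S100A9, reached a mean FPKM of 1. They form calprotectin, the antimicrobial complex of neutrophils and stressed epithelia. S100A9 stood at 27.5 FPKM with the solvent and 98.0 FPKM with the inhibitor, a ratio of 3.57 (3.17 to 4.02), and was called higher with a log2 difference of 1.80. S100A8 stood at 1.01 FPKM with the solvent and 2.71 FPKM with the inhibitor, on 21 and 55 reads, a ratio of 2.68 (1.60 to 4.67). Myeloid cells also make both, and of the 5 myeloid markers these 2 were the ones measured. PTPRC, which all leukocytes express, had 0 reads in both libraries and CD68 stood at 0.119 and 0.081 FPKM, and S100A12, of the same myeloid cluster, had 1 and 2 reads. S100A5 stood at 0.764 and 0.671 FPKM. S100A7, S100A7A, S100G and S100Z had, like S100B, 0 reads in both libraries.

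Along chromosome 1, 16 of the 20 S100 genes listed here lie between S100A10 and S100A1. Within these bounds 19 genes carried an S100 symbol, and those not listed here are not described. The listed S100 genes with ratios above 2 on at least 20 reads were not all adjacent. S100A9 and S100A8 lie at one end of the main cluster with S100A12 between them. S100A3, nested in S100A4, and S100A2 lie farther in, with S100A7A, S100A7, S100A6 and S100A5 between the pairs. Of 71 genes without an S100 symbol within these bounds, 1 reached a mean FPKM of 1. It is BX470102.1, an antisense gene that shares 2.37% of the exon length of S100A6, at 4.03 FPKM with the solvent and 5.03 FPKM with the inhibitor. The S100-fused genes of that stretch, such as FLG, the filaggrin of the skin barrier, gave 0 measured of 7, with a summed level of 0.317 and 0.73 FPKM.

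Of the annexins, which bind membranes in a calcium-dependent way and are the main partners of the S100 proteins, 12 of 13 were measured. Of these 1 was called higher and 0 lower, with a median log2 difference of 0.02. ANXA2, the partner of S100A10, stood at 264 FPKM with the solvent and 273 FPKM with the inhibitor, a ratio of 1.03 (1.02 to 1.04), against 1.18 for S100A10. ANXA1, the partner of S100A11, stood at 181 FPKM with the solvent and 215 FPKM with the inhibitor, a ratio of 1.19 (1.16 to 1.21), against 1.05 for S100A11. ANXA6 was the annexin called, at 2.06 FPKM with the solvent and 5.94 FPKM with the inhibitor, a ratio of 2.88 (2.5 to 3.33). ANXA11, a partner of S100A6, had a ratio of 0.743 (0.710 to 0.777), and ANXA3 and ANXA9 had log2 differences of 0.28 and -0.21. The ratio of ANXA3 was 1.22 (1.17 to 1.28), while that of ANXA9, on 83 and 65 reads, had an interval that holds 1 (0.571 to 1.12).

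Of 17 other partners and receptors 11 were measured, and 0 were called in either direction, with a median log2 difference of -0.09. MYH9, the heavy chain of non-muscle myosin that S100A4 binds, stood at 33.8 FPKM with the solvent and 56.5 FPKM with the inhibitor, a ratio of 1.67 (1.62 to 1.72). IQGAP1, a scaffold that S100P binds, went the other way, at 28.0 FPKM with the solvent and 13.6 FPKM with the inhibitor, a ratio of 0.487 (0.468 to 0.507). Its log2 difference of -0.99 lay just short of a call. EZR, the ezrin that S100P binds, stood at 132 and 124 FPKM, AHNAK, which binds the complex of S100A10 and annexin A2, at 48.1 and 36.8 FPKM, and CACYBP at 23.5 and 27.3 FPKM. MDM2, which binds p53, and ALCAM, an adhesion protein, had log2 differences of 0.67 and -0.64. AGER, the gene of the receptor RAGE, was low, at 1.26 FPKM with the solvent and 0.718 FPKM with the inhibitor on 61 and 34 reads, and missed the filter. PLG, the plasminogen that S100A10 binds, had 0 reads in both libraries.

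A list of other EF-hand genes served as a reference. All 24 were measured, 0 were called in either direction, 11 lay above 0 and 13 below, and the median log2 difference was -0.04. CALM2 and CALM3, which both encode calmodulin, had ratios of 1.34 (1.31 to 1.38) and 0.988 (0.947 to 1.03). The largest differences besides CALM2 were those of SRI at -0.46, NUCB2 at -0.41, CAPN2 at 0.36 and CETN2 at -0.31 on the log2 scale. Their whole range ran from -0.46 to 0.42, and that of the S100 genes from -0.47 to 2.22. Without S100A3 the upper end of the latter is S100A2 at 0.74, and both are low-tier genes. Since these same values chose the S100 genes, nothing is read from the comparison of ranges.

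**Figure D4:**
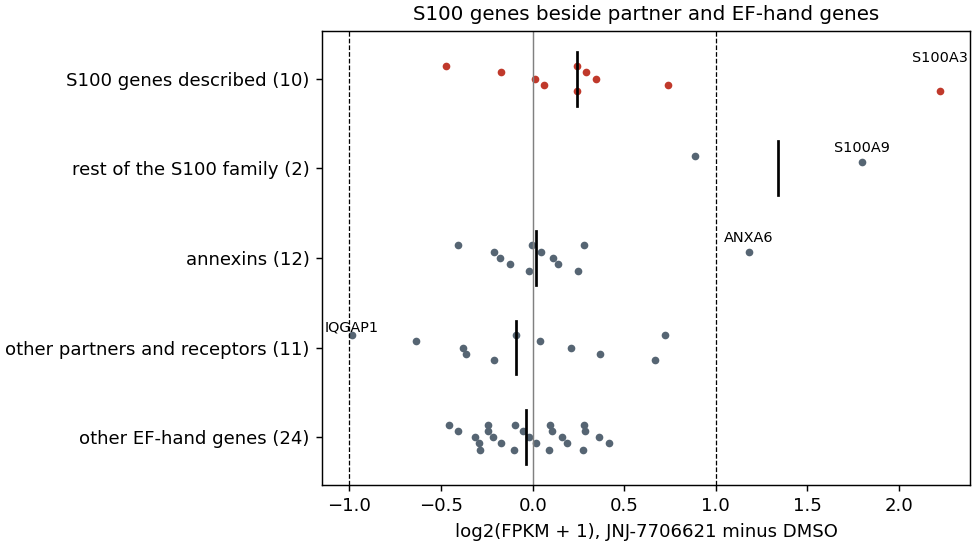
Log2 difference between the libraries for each measured gene of 5 lists, with the number of genes measured in parentheses. Points are genes, spread vertically for legibility, black bars are list medians, and dashed lines mark the limits for a call at 1 and -1. S100A3, S100A9 and ANXA6 lie beyond 1, and IQGAP1 at -0.99 lies just inside -1.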

How the data were processed

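RNA sequencing values of 2 libraries, 1 per group, were taken from the table of FPKM values that the authors deposited. The submitters' processing notes name the build hg38 and edgeR without a role. The aligner, the counter, the annotation and any use of strand were not given in the sources used here. Of 4 value columns, the 2 whose names match the sample labels were used. The other 2 match no sample label given here and were not used, although their names end in 2 in place of 1, so they may be further libraries of these groups.

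Library totals and reads were recovered from FPKM with Python 3.11.15, numpy 2.4.6, pandas 2.3.3 and scipy 1.17.1, as FPKM times exon length (GENCODE release 29) times total must be whole, here within 0.0001 reads. For 6 of the 10 genes another exon length was needed, the nearest within 0.25 to 4 times. For S100A10 and S100P shorter lengths also gave whole reads, which would widen their intervals to 1.14 to 1.23 and 0.681 to 0.759. Recovered reads made up 99.7% of each total. Calculations were tested on simulated data in which the exon length was given, so the search for another length was not tested. The reference sequences are from RefSeq. The genes and gene lists were chosen with earlier results of these data known. All 10 genes and the listed rest of the S100 family are named, as are fixed partners and up to 5 genes of each other list by size of difference. One gene that this rule takes is not reported here. Markers and genes of the chromosome 1 region named beside these illustrate counts. A comparison of the S100 proteins by sequence was planned and not run.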

Additional observations from a re-analysis of the deposited data

How the results depend on the processing

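S100A3 was called higher under all 6 alternatives of scale, filter and pseudocount, with a log2 difference from 2.22 to 2.43. S100A2 was called as well with a pseudocount of 0.1, at 1.12, and with a call at 1.5-fold, so that 2 of the 10 genes were then called higher. At 1.5-fold 1130 of all genes were called higher and 897 lower. Of the 10 genes 0 were called lower under any of these 7 alternatives. Of 58 values of single members under the alternatives, 57 kept their sign, and the other was S100A6 at -0.0025 after rescaling to a sum of 1000000. Over all genes, 608 were called higher and 409 lower with a pseudocount of 0.1, and 145 and 75 with a mean FPKM of at least 5, which tests fewer genes, against 316 and 180 in the main setting. With a pseudocount of 0.5, 462 genes were called higher and 274 lower. After rescaling to a sum of 1000000 the counts were 465 and 305. The FPKM of all genes summed to 437891 in DMSO and 443285 in JNJ-7706621, so this rescaling raised both and made the pseudocount weigh less. After rescaling to a median difference of 0 the counts were 318 and 180, and with no filter on low values 395 and 243. S100A2 and S100A13 were not tested with a mean FPKM of at least 5. No paired analysis was possible because 1 library of each group was analysed here. Read numbers limit S100A2, S100A3 and S100A13 most.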
